A study of Danaus plexippus with 36 samples.

Results

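Low-abundance genes nearly confined to the antennae of adult monarch butterflies (Danaus plexippus) were chosen by their mean levels in 3 appendages. Levels are given as CPM, for which each library's counts were brought to a sum of 1000000. To each tissue mean 0.1 CPM was added. A gene was a member if the antennal value so obtained was at least 2 and under 30 CPM and at least 16 times both the leg value and the proboscis value. The rule found 103 members among 15130 genes, which is 0.681% of them. Another 5566 genes lay in the same band of antennal means without passing the fold, and 87 genes passed the fold at a higher antennal mean.

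Libraries of antennae, legs and proboscis were made from field-caught adults, 6 gravid females and 6 males. The labels put 3 animals of each sex in each of 2 batches and do not say what a batch is. Female antennae had 6 libraries and male antennae 5, since the antennae of male 2 were not analysed here, and legs and proboscis had 6 libraries of each sex. Every female was labelled gravid, and sex cannot be told apart from reproductive state. The animals were wild, and the labels give no age, host plant or date of capture. Total counts, in units of 1000000, ran from 0.622 to 24.7 in antennae, from 11.7 to 117 in legs and from 1.92 to 53.7 in proboscis.

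An insect antenna carries hair-like sensilla in which a few sensory neurons detect odours with receptor proteins, while supporting cells secrete the fluid and the odorant-binding proteins around them. Legs and proboscis carry mainly taste sensilla that respond on contact. Receptor genes of this kind are known in insects to be transcribed in few cells and to give low transcript levels in a whole appendage. The deposited table does not pair its gene identifiers with names, and 0 of them matched the reference gene table, so no member could be assigned to a receptor family, a cell type or any other function. Members are therefore described by their levels, and a few are given by identifier. The tissue labels could not be checked against marker genes for the same reason. In such whole-tissue samples, fewer cells of a type and less RNA per cell cannot be told apart.

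Antennal means ran from 2.10 to 29.8 CPM with a median of 7.96 CPM, and 27 members lay under 5 CPM, 34 from 5 to under 10 CPM, 28 from 10 to under 20 CPM and 14 at 20 CPM or more. The median member had 0.0542 CPM in legs and 0.0810 CPM in proboscis, and the highest means were 1.12 CPM in legs and 1.25 CPM in proboscis. The smaller of the rule's ratios had a median of 31.2, and it reached 32 in 49 members, 64 in 23 and 128 in 8. These values chose the members and are given as a description without a test.

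**Figure D1:**
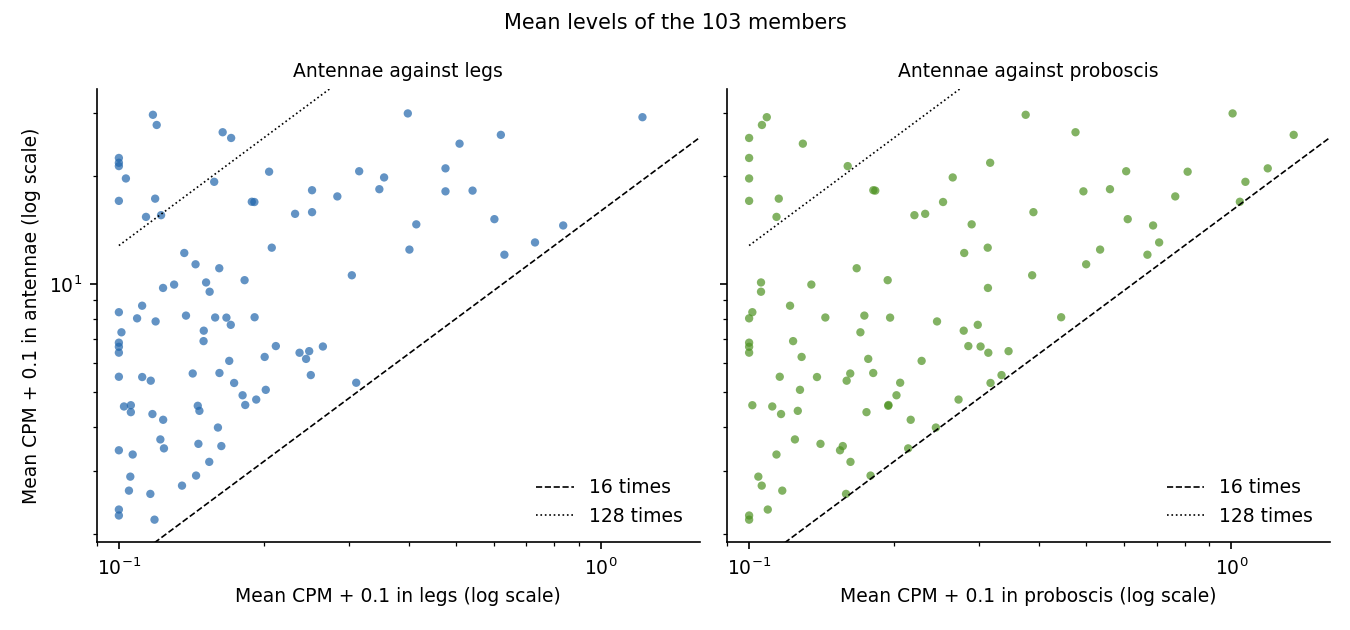
Each point is 1 of the 103 members; the vertical axis is its mean CPM plus 0.1 in antennae, and the horizontal axis its mean CPM plus 0.1 in legs (left) or proboscis (right), all on log scales. The dashed line marks 16 times, which the rule required, and the dotted line 128 times; 8 members lie at or above the dotted line in both panels.

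The members just inside the fold had smaller ratios of 16.27 and 16.28, and the nearest genes outside it 15.99 and 15.98. The lowest antennal mean among members was 2.10 CPM, and the nearest gene below the band that met the fold had 1.88 CPM. The highest was 29.8 CPM, and the nearest gene above the band had 30.5 CPM.

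Most members had some counts outside the antennae. Antennae held 90043 member counts in all, legs 5695 and proboscis 4496. No leg count was found for 12 members and no proboscis count for 10, and 6 of these had neither. The other 87 members had at least 1 count in both tissues. Means under 0.1 CPM in both tissues were found for 50 members, while 6 members reached 0.5 CPM in legs and 12 in proboscis. In legs 7 members had a count in all 12 libraries, and 0 had one in all 12 proboscis libraries.

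DPOGS209992 and DPOGS216024 had the largest smaller ratios, 232 and 225. In antennae DPOGS216024 had a lowest level of 0, a median of 21.6 and a highest of 66.7 CPM in the 6 females. In the 5 males it had 0, 2.36, 4.93, 18.7 and 49.3 CPM. It had no count in any of the 12 leg or 12 proboscis libraries. The summed antennal level was thus at least 4575-fold higher than in legs and at least 2341-fold higher than in proboscis, with 3 counts over all libraries of a tissue as the floor. The antennal libraries without a count, those of male 20 and female 11, are the only ones that overlap the other tissues.

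DPOGS209992 had a lowest level of 0, a median of 5.81 and a highest of 24.3 CPM in female antennae. Male antennae had 0, 15.3, 34.1, 86.0 and 108 CPM. Its leg counts were 8 in female 3 and 1 in female 11, and its only proboscis count was in female 18. The summed antennal level was 893 times that of legs (exact 95% interval 469 to 1957) and 4111 times that of proboscis (737 to 162495). These intervals and floors cover counting error only, and not the spread between animals. DPOGS209992 and DPOGS216024 were picked for the largest ratios on this same contrast. Their folds and intervals are therefore a description, and nothing is read from them. Again the antennae of male 20 and female 11 had no count.

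Summed over all 103 members, the module took a small part of each library. The sum was 1109 ± 464 CPM (SD, n = 11) in antennae, which is 0.111% of the counts, 12.0 ± 4.39 CPM (SD, n = 12) in legs and 18.8 ± 6.34 CPM (SD, n = 12) in proboscis. The lowest antennal library, that of male 15 at 433 CPM, was 22.6 times the highest leg library and 14.6 times the highest proboscis library. The 87 abundant genes of the same tissue pattern summed to 54347 ± 39128 CPM in antennae, 328 ± 234 CPM in legs and 524 ± 343 CPM in proboscis. Their sum ran from 9535 to 110745 CPM over the antennal libraries, a wider range than the 433 to 1823 CPM of the low-abundance members.

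Which members were seen differed strongly between antennal libraries. The antennae of female 25 had a count for 102 of the 103 members, those of female 1 and male 13 for 97 each, those of female 3 for 94, those of male 16 for 89 and those of female 27 for 88. Lower numbers came from male 12 with 69, male 15 with 59, female 18 with 43, female 11 with 38 and male 20 with 30. Only 8 members had a count in all 11 antennal libraries, and the median member had one in 8.

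Depth alone did not order these libraries. In units of 1000000 counts, male 16 had a depth of 2.24 and 89 members seen, while male 20 had a depth of 3.68 and 30 members, and female 18 a depth of 5.22 and 43 members. In male 20 a floor of 3 counts stood at 0.814 CPM, below the mean of every member, and 73 members still had no count there. The 30 members that were seen had a median of 15.5 CPM and 57 counts, and 5 of them held 58.2% of the member counts of that library. In a draw of 600000 counts the expected number of members was 29.2 in male 20 and 38.8 in female 18, against 90.9 in female 25.

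Of the 5 libraries with the fewest members seen, 4 were also low over other genes. In the draw, 8582 to 8781 genes were expected in the antennae of females 11 and 18 and of males 12 and 20, and 9582 to 10715 in the other 7 antennal libraries. Male 15, the lowest of these 7, had 9582 genes in the draw and a count for 86.5% of the band genes that were not members, but for 57.3% of members. In the 4 libraries the members with a count made up 43.7% on average, against 86.8% in the other 7. For the 5566 genes of the same antennal band that were not members the shares were 73.0% and 95.7%. Their part in the results was not tested, so counts are given below also without the 4 libraries, a choice made after seeing the data. The proboscis libraries of male 20 and female 11 were low too, with 7 and 6 members seen, against 30 to 62 in the other 10.

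**Figure D2:**
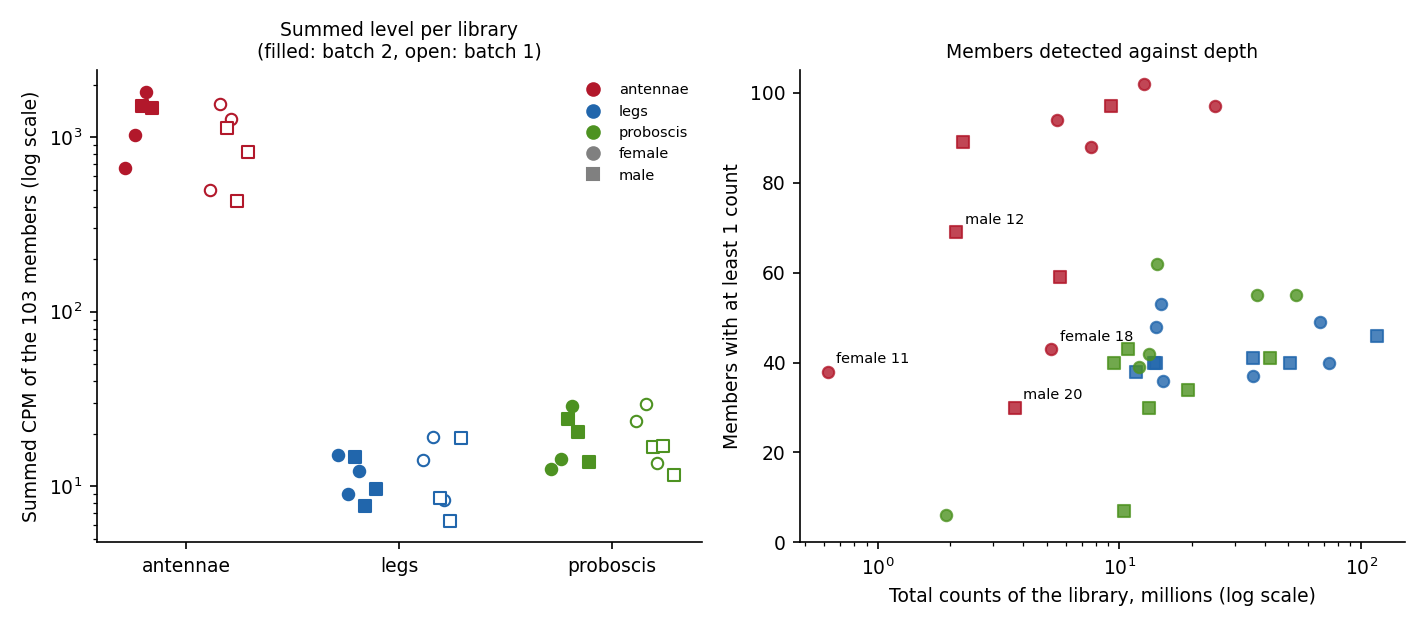
Left: the summed CPM of the 103 members in each library (log scale) by tissue, with batch 2 filled and left of batch 1, circles for females and squares for males; every antennal library lies at 433 CPM or more and every other library at 29.7 CPM or less. Right: the number of members with at least 1 count against the library's total counts, in units of 1000000 (log scale), with the 4 antennal libraries that showed under 9000 genes in a draw of 600000 counts named.

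Few members were free of overlap between tissues. In 7 members the lowest antennal library exceeded the highest leg library (background 4.28% of the 14614 genes with a count), and in 3 it exceeded the highest proboscis library (1.01%). The same 3 members were free of overlap with both tissues (0.78%). With the 4 libraries left out, 36 members were free of overlap with both tissues, against 2.74% of all genes. The rule chose on this contrast, so nothing is read from these counts.

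The spread between antennal libraries is given as a description, since a rule on means also admits genes whose mean 1 library carries. The coefficient of variation over the 11 libraries had a median of 1.19 for members and 0.719 for the 5566 band genes that were not members. For the 87 abundant genes of the same tissue pattern its median was 0.937. The highest library held a median of 32.5% of a member's summed antennal CPM, against 21.2% for those band genes. Over the 7 libraries left without the 4 with few genes, the medians were 0.823 for members and 0.535 for band genes in the coefficient of variation, and 33.2% and 25.7% in the share of the highest library. The highest value of a member lay in female 3 for 20 members, in male 12 for 19, in male 20 for 14 and in male 16 for 13. An antennal median of 0 was found for 9 members, which had a count in 5 or fewer of the 11 libraries, and a median under 1 CPM for 16.

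DPOGS205125 and DPOGS204899 stood at the ends of the ratio of the highest to the median antennal level. For DPOGS205125 that ratio was 1.70, the lowest of the 94 members with a median above 0. It had a lowest level of 0, a median of 7.38 and a highest of 23.3 CPM in female antennae, and 0, 18.2, 18.9, 21.4 and 22.3 CPM in male antennae. The zeros were again female 11 and male 20.

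For DPOGS204899 the ratio was 84.8, the highest found. Female antennae had a lowest level of 0, a median of 1.71 and a highest of 35.4 CPM. Male antennae had 2.23, 2.72, 7.74, 27.4 and 230.4 CPM. The highest value was that of male 20, the library with the fewest members seen, and without it the antennal mean fell to 8.97 CPM, against 29.1 CPM with it. One further member, chosen here after its values were seen, had a count in 2 antennal libraries only, and female 11 held 99.6% of its summed antennal CPM.

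Members with consecutive identifiers were common. A member with a neighbouring identifier number that was also a member was found for 21 of the 103, or 20.4%, in 9 pairs and 1 run of 3. Of the genes that were not members, 1.11% had a member at a neighbouring number. Over the 11 antennal libraries the 11 neighbouring pairs had a median correlation of 0.716 (range 0.315 to 0.964) in log2(CPM + 0.5), and all 5253 pairs of members one of 0.286. These points share libraries and depth. Whether neighbouring numbers are neighbours in the genome, and whether such genes are similar copies that share reads, is not given in the sources used here, and such members are uncertain in these counts.

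The sexes were compared within antennae, with the batch as a term, in a test across all genes. No member was called at an adjusted p below 0.05 (edgeR quasi-likelihood test, Benjamini-Hochberg adjustment over 10037 genes), and the share of all genes called was 0% in either direction. DESeq2 called 0 members, and over all genes 0.0598% higher and 0.0299% lower in females. At an unadjusted p below 0.05 the members numbered 1 higher and 1 lower in females, of 91 tested, and 2.3% of all genes passed it. Of the 91 members 53 had a positive log2 fold change, or 58.2%, beside 53.1% of all genes tested, and nothing is read from this difference. The median was 0.39 for members, beside 0.04 over all genes. It turned negative without female 25, where 39 of 84 members were positive with a median of -0.19. The median was 0.17 without male 15, female 27 or female 3, 0.19 without male 20 and 0.56 without the 4 libraries with few genes. The median standard error of a member was 1.37, so differences of several fold were not detectable for a typical member.

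DPOGS209614 had the smallest unadjusted p among members that were higher in females. Female antennae had a lowest level of 0, a median of 21.6 and a highest of 147 CPM. Male antennae had 7.56 CPM in male 12 and 0 in the other 4. Females averaged 38.5 ± 55.4 CPM (SD, n = 6), males 1.51 ± 3.38 CPM (SD, n = 5). The log2 fold change was 5.18 ± 2.14 (SE, edgeR adjusted p = 0.999). It was 11.60 without male 12, the only male with a count, and 12.47 without the 4 libraries with few genes (edgeR adjusted p = 0.0714). With no male count left, these fitted values depend on the prior count and are no bound. The female zeros were female 18 and female 11, so the groups overlap.

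DPOGS211428 led in the other direction. Female antennae had a lowest level and a median of 0 and a highest of 3.56 CPM. Male antennae had 3.52, 6.79, 16.5, 25.7 and 46.8 CPM. Females averaged 1.14 ± 1.77 CPM (SD, n = 6), males 19.9 ± 17.4 CPM (SD, n = 5). The log2 fold change was -3.77 ± 1.28 (SE, edgeR adjusted p = 0.999), and -5.70 without female 25 (edgeR adjusted p = 1.00). The lowest male lay just under the highest female.

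DPOGS206989 is described by sex after its values were seen, since it was too rarely counted for the sex test. It had 26.6, 39.8, 50.8 and 153 CPM in the antennae of females 1, 27, 25 and 3 and no count in those of females 18 and 11, while all 5 male antennal libraries had no count. With 3 counts over all male antennal libraries as the floor, the summed female level was at least 331-fold higher. Fitted without the filter on low counts, the difference had an edgeR adjusted p of 0.905. In legs the gene had 142 counts in females and 24 in males, with a median of 0.447 CPM in female legs and 0 in male legs. Members without a count in any female antennal library numbered 0, and those without one in any male antennal library 2. Of the 5566 band genes that were not members, 4 had no count in female antennae and 9 none in male antennae.

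**Figure D3:**
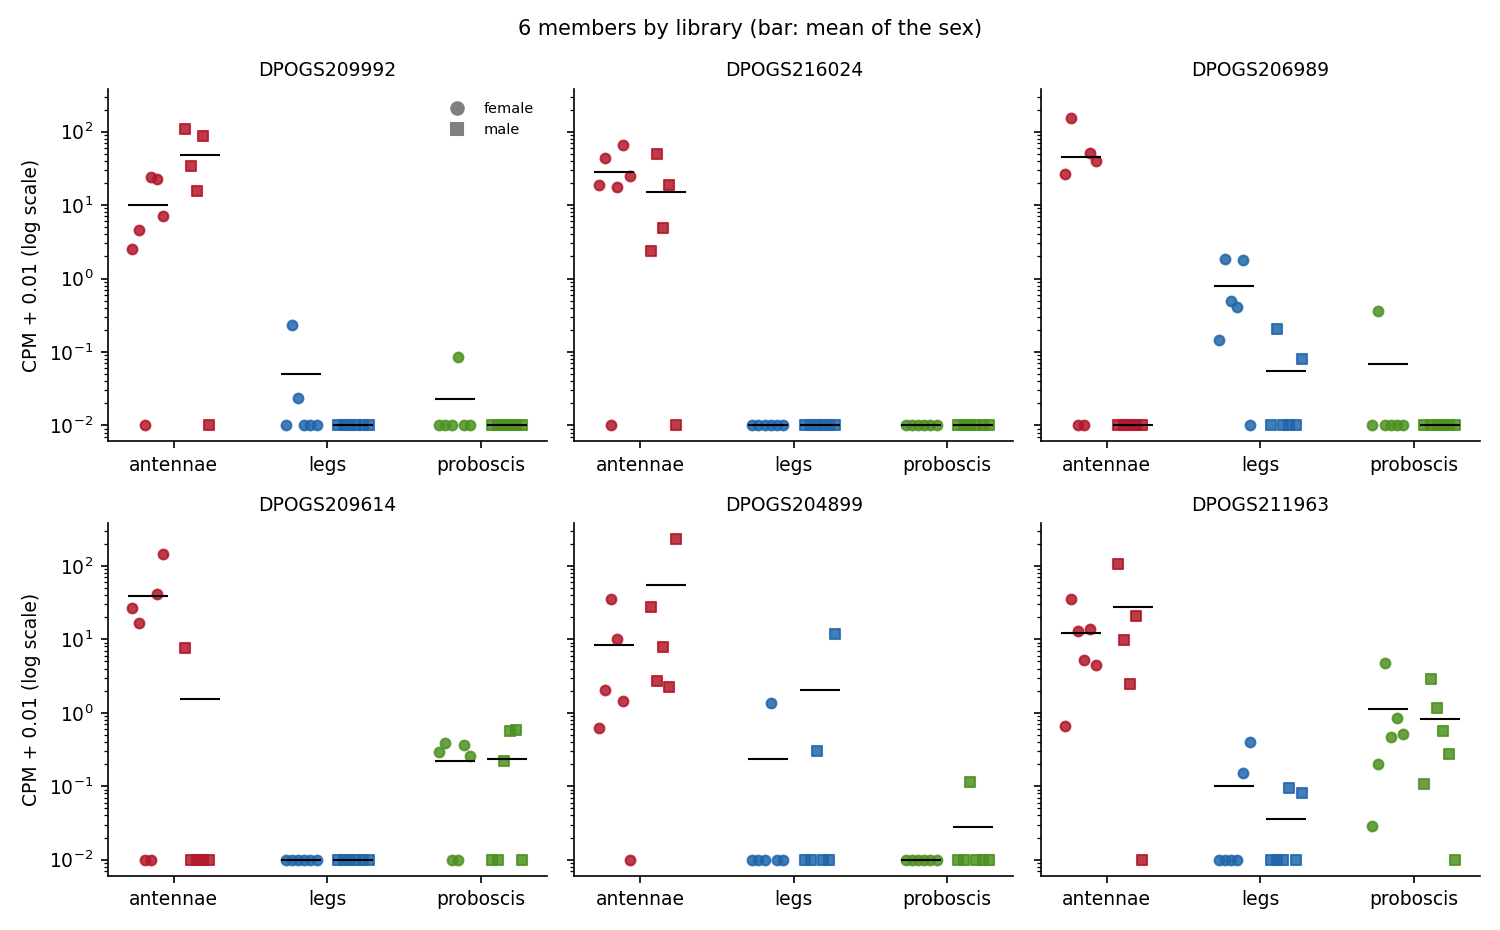
CPM plus 0.01 (log scale) of 6 members in every library by tissue, with circles for females left of squares for males and a bar at the mean of each sex. DPOGS216024 has counts in antennae alone, DPOGS206989 has antennal counts in 4 females and no male, and the leg level of DPOGS204899 is highest in male 20.

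Between the batches no member was called within antennae, although most leaned the same way. Of the 91 members tested 79 had a positive log2 fold change in batch 2 over batch 1, with a median of 0.85, beside 51.3% positive and a median of 0.02 over the 10037 genes (edgeR, with sex as a term). By mean CPM, 70 of the 103 members were higher in batch 2 antennae. All members share the same 11 libraries, so their signs are not independent. At an unadjusted p below 0.05 there were 5 members higher and 0 lower in batch 2, where 7.51% of all genes passed. Over all genes 0.00996% were called higher and 0% lower, in edgeR. DESeq2 called 0 members, and over all genes 0.578% higher and 0.399% lower. The summed level was 1299 ± 456 CPM in batch 2 (SD, n = 5) and 950.4 ± 444 CPM in batch 1 (SD, n = 6), with ranges of 663 to 1823 CPM and 433 to 1552 CPM that overlap. The 87 abundant genes summed to 14370, 55374, 87180, 98676 and 110745 CPM in batch 2 antennae. In batch 1 antennae they summed to 9535, 14152, 14428, 45423, 47321 and 100614 CPM. Whether the lean is particular to the members was not tested. Each batch held 2 of the 4 libraries with few genes, and without them 76 of 98 tested members were positive with a median of 0.69. The median was 1.38 without male 13 and 0.61 without male 16, and it stayed positive without each library in turn.

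DPOGS208146 had the smallest unadjusted p among members that were higher in batch 2. Batch 2 antennae had 0, 3.31, 7.57, 12.4 and 34.2 CPM, and batch 1 antennae a lowest level of 0, a median of 0.163 and a highest of 6.81 CPM (log2 fold change 3.86 ± 1.36, SE, edgeR adjusted p = 0.552). DPOGS215290 led in the other direction, with 0, 2.00, 2.36, 5.38 and 9.80 CPM in batch 2 antennae. Batch 1 antennae had a lowest level of 1.66, a median of 16.4 and a highest of 26.1 CPM (log2 fold change -1.58 ± 0.85, SE, edgeR adjusted p = 0.703). The ranges overlap in both genes. The fold change of DPOGS215290 turned to 0.062 without the 4 libraries with few genes and was -0.71 without female 18.

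**Figure D4:**
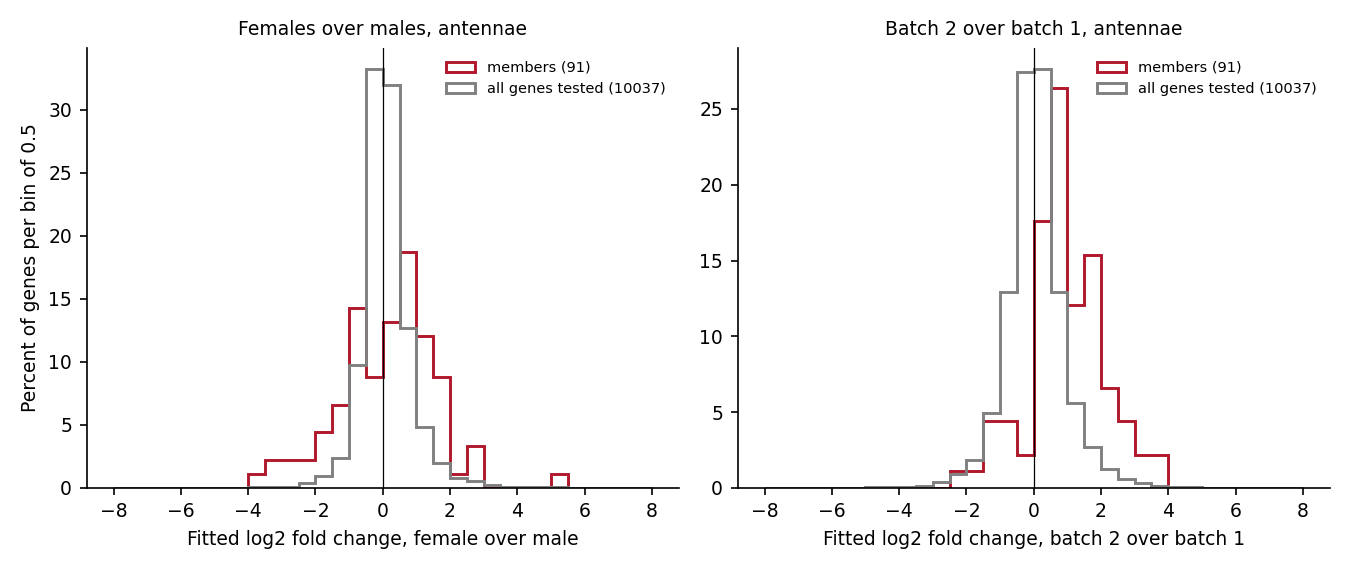
Share of genes (percent per bin of 0.5) by fitted log2 fold change within antennae, for females over males (left) and batch 2 over batch 1 (right), with the 91 members tested in red and all 10037 genes tested in grey. The members are spread more widely than all genes, and their median lies at 0.39 in the sex panel and 0.85 in the batch panel.

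The rule was also applied to each batch alone, so that the animals of the other batch took no part in the choice. Batch 1 gave 98 genes, 74 of them members, and batch 2 gave 143 genes, 87 of them members. The lists shared 60 genes, which is 61.2% of the batch 1 list and 42.0% of the batch 2 list. Of the genes chosen in batch 1, 97 of 98 had a higher antennal mean than both other means in batch 2, and 71 also met the fold of 16 there. Of those chosen in batch 2, 136 of 143 had the highest mean in the antennae in batch 1, and 67 met the fold. Shares over all genes are not given for the highest mean or the fold. These counts are therefore a description, and nothing is read from them.

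In batch 2, 49 of the 98 genes chosen in batch 1 were called higher in antennae than in legs, which is 50%, against 22.4% of all 11762 genes tested there (edgeR, threshold of 0.05 on the adjusted p). Against proboscis 43 were called, or 43.9%, beside a background of 5.06%. Only 57 of the 98 passed the filter on low counts, and those that failed count as not called. The calls are thus 49 and 43 of the 57 tested, and the backgrounds are shares of genes tested. In batch 2 the 98 genes had median means of 0.0611 CPM in legs and 0.0895 CPM in proboscis. Such genes pass the filter mainly where antennae are high, which is the direction tested, so nothing is read from shares of the 57. Without that filter 83 and 70 of the 98 were called, beside 18.7% and 3.98% of all genes, and without the antennae of female 11 and male 12 the numbers were 70 and 58, beside 20.6% and 4.77%.

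Fewer calls were made with the batches exchanged. In batch 1, 28 of the 143 genes chosen in batch 2 were called higher in antennae than in legs, or 19.6%. Of all 10721 genes tested there 19.2% were called. Against proboscis 22 were called, or 15.4%, beside 7.84%. Here 41 of the 143 genes passed the filter, so the calls are 28 and 22 of the 41 tested. The backgrounds are shares of genes tested, and shares of the 143 cannot be read against them. In batch 1 the 143 genes had median means of 0.0802 CPM in legs and 0.153 CPM in proboscis. They too pass the filter mainly through antennae, so nothing is read from shares of the 41. Without the filter 96 and 82 were called, beside 14.4% and 6.13% of all genes. Without the antennae of female 18 and male 20 the numbers were 66 and 55, beside 21.1% and 8.75%. A median smaller ratio of 15.1 in batch 1 was found for the genes chosen in batch 2, and one of 28.9 in batch 2 for those chosen in batch 1.

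**Figure D5:**
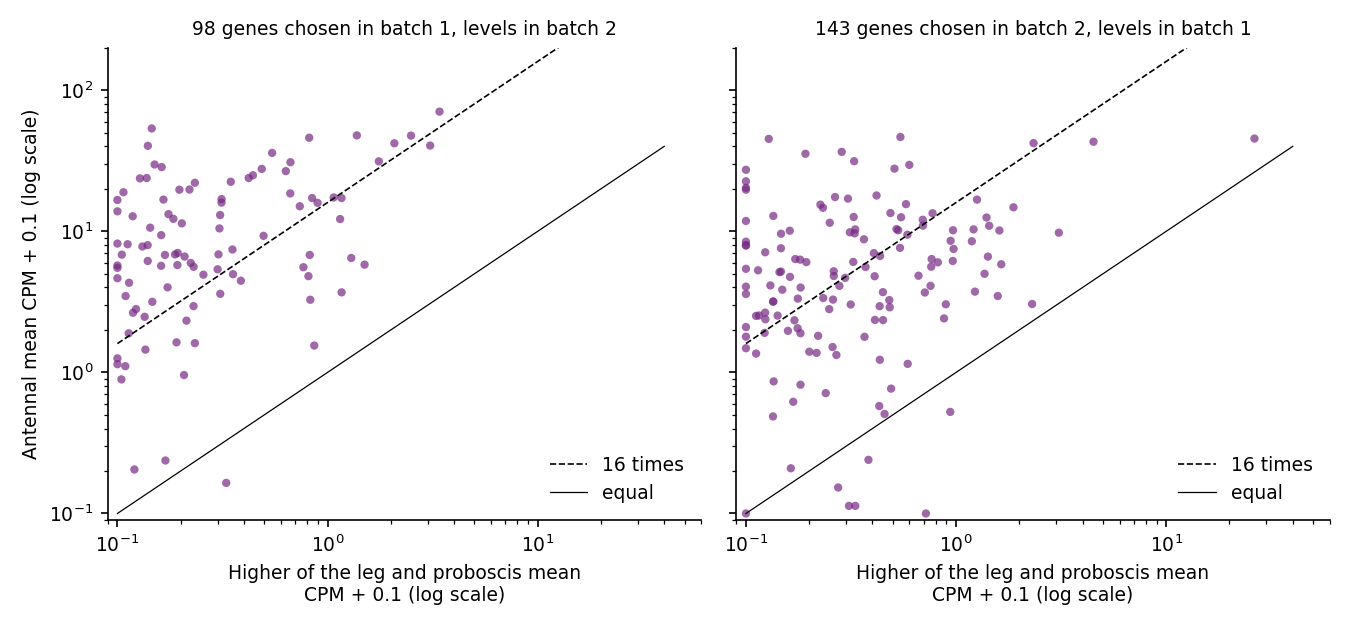
Levels in the batch that was not used for the choice: antennal mean CPM plus 0.1 against the higher of the leg and the proboscis mean CPM plus 0.1 (log scales), for the 98 genes chosen in batch 1 with their levels in batch 2 (left) and the 143 chosen in batch 2 with their levels in batch 1 (right). Most points lie above the solid line of equal means, and 71 on the left and 67 on the right lie on or above the dashed line of 16 times.

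Residual levels in legs and proboscis were compared with each other over the 35 libraries. The rule limits both levels but does not compare them. Among 98 members tested, 3 were called higher and 11 lower in legs than in proboscis (edgeR, adjusted over 11804 genes). These are 2.91% and 10.7% of the 103 members, beside 12.6% and 12.3% of all genes, and nothing is read from the difference. Members passed the filter on low counts through antennae, where the rule makes them high. Of the 98 tested, 6 had no count in the 24 leg and proboscis libraries and could not have been called, and 18 had fewer than 10, these 6 included. The median tested member had 52.5 counts there, against 9819 for the median gene tested. At an unadjusted p below 0.05 there were 6 members higher and 15 lower in legs, where 36.8% of all genes passed. The 11 had leg means of 0 to 0.105 CPM and proboscis means of 0.0544 to 0.970 CPM, with log2 fold changes of -5.53 to -2.81. In a fit of the leg and proboscis libraries alone, added after seeing the data, 9 members passed the filter and 1 was called. This was DPOGS209382, whose leg mean of 0.0887 CPM lay below its proboscis mean of 0.942 CPM (log2 fold change -3.75 ± 0.75, SE, edgeR adjusted p = 0.000664). There 16.2% of the 11034 genes tested were called higher and 17.2% lower in legs. In batch 2 alone 6 members were called, all lower in legs, and in batch 1 alone 0 were (edgeR, 1 higher and 3 lower at an unadjusted p below 0.05). The summed level averaged 6.85 ± 6.56 CPM (SD, n = 12) less in legs than in proboscis and was lower in the legs of 10 of 12 animals. The number of calls was 7 without animal 12, 8 without animal 3 and 9 without animal 13.

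DPOGS209614 and DPOGS211963 had the largest fitted changes among members called lower in legs over the 35 libraries. Neither passed the filter with the leg and proboscis libraries alone. Their antennal counts carried them past it, so they are given as a description and nothing is read from their adjusted p. DPOGS209614 had no count in the 12 leg libraries and a lowest level of 0, a median of 0.230 and a highest of 0.573 CPM in proboscis. By summed levels, with 3 counts over all leg libraries as the floor, it was at least 36.5-fold lower in legs (edgeR adjusted p = 0.00890). Its proboscis counts came from 7 of 12 libraries, 4 of females and 3 of males, while its antennal counts came from 4 females and 1 male.

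DPOGS211963 had a lowest level and a median of 0 and a highest of 0.395 CPM in legs. In proboscis it had a lowest level of 0, a median of 0.476 and a highest of 4.70 CPM (log2 fold change -4.33 ± 1.23, SE, edgeR adjusted p = 0.00939). It was counted in 4 of the 12 leg libraries and in 11 of the 12 proboscis libraries, and its call was lost in batch 1 alone.

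DPOGS204899 and DPOGS206989 led among those higher in legs. They too did not pass the filter with the leg and proboscis libraries alone, so nothing is read from their adjusted p either. DPOGS204899 had 191 counts in legs, 167 of them in male 20, at 11.8 CPM, and 1 count in proboscis. The ratio of summed levels was 97.7 (exact 95% interval 17.3 to 3880, counting error only; edgeR adjusted p = 0.0322). The leg mean was 1.12 CPM with male 20 and 0.149 CPM without it, and the call was lost without male 20, male 13, male 15 or female 18 and in each batch alone. Male 20 also had its highest antennal level. DPOGS206989 had a lowest level of 0, a median of 0.102 and a highest of 1.85 CPM in legs and a count in proboscis in female 3 alone, at 0.351 CPM (log2 fold change 3.58 ± 1.32, SE, edgeR adjusted p = 0.0481). Its call was lost in 8 of the 10 fits without 1 animal in which it passed the filter, and with DESeq2, the size factors of DESeq2 or upper-quartile scaling, and in each batch alone.

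The animal with the highest antennal level also had the highest leg level in 19 of the 90 members with a leg count, over the 11 animals with all tissues, which is 21.1%. The share was 11.7% among band genes that were not members and 12.2% among all genes with a count in both tissues. For proboscis this was so in 16 of 93 members, or 17.2%, beside 14.7% and 16.0%. These shares were not tested against each other. Animal 20 accounted for 6 of the 19 members in legs, and animals 3 and 12 for 4 each.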

How the data were processed

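Counts per gene were deposited by the authors, as whole numbers that sum to different totals and were taken as unscaled. The submitters' processing notes list limma, featureCounts 1.5.2, HISAT2 2.0.5 and FastQC 0.11.5. The sources used here give no build, annotation, strand setting or rule for multiply mapped reads. Libraries were made from 100 ng of total RNA with a stranded kit, per the labels' protocols. Of 36 samples 35 were analysed.

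CPM values used column sums. Tests used R 4.3.3 and edgeR 4.0.16 (quasi-likelihood, TMM scaling, filterByExpr), with Benjamini-Hochberg adjustment over all genes tested and a threshold of 0.05. Sex and batch were tested in the 11 antennal libraries, legs against proboscis in all 35 with batch as a term, and tissues within a batch with sex as a term. Alternatives used DESeq2 1.42.0 and limma 3.58.1. Standard errors derive from the F statistic. Expected numbers in a draw of 600000 counts are hypergeometric. The fits were also run on simulated counts in which only genes above a floor of expected counts were changed. That run does not cover genes with counts near 0, such as most members in legs and proboscis. Figures used matplotlib 3.10.9.

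Tissues of 1 animal are paired by the labels' animal number. Deviations of libraries of 1 animal from the means of group and batch had median correlations of 0.158 between antennae and legs, 0.189 between antennae and proboscis and 0.33 between legs and proboscis. The main fits have no term for the animal. Spread in the sex and batch tests is that between animals. No pair of replicates was alike enough to be 1 library (smallest chi-square per gene 27.8).

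The members and lists were chosen with earlier results of these data known. Identifiers were named by rule, at most 2 per direction: the largest smaller ratio, the largest called change (or, with no call, the smallest p) in each test, and the extreme ratios of highest to median antennal level. Lists of product names were void, since no identifier matched.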

Additional observations from a re-analysis of the deposited data

Results flagged for a closer look

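Within groups of 4 to 10 libraries, a library was singled out where its gap to the nearest other exceeded Dixon's 95% critical value. In all, 44 groups were examined and 15 values passed. The genes examined were named from these same values, also by their spread. A chance rate of 1 in 20 groups therefore does not apply to them, and nothing is read from the number that passed. Most of these groups hold libraries without a count, to which the criterion is sensitive.

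In female antennae the highest values were 147 CPM of DPOGS209614 in female 27 (others 0 to 40.9), 34.2 CPM of DPOGS208146 in female 3 (0 to 12.4), 25.8 CPM of DPOGS215290 in female 18 (0 to 5.63) and 35.4 CPM of DPOGS204899 in female 11 (0 to 10.1). In male antennae DPOGS209614 was at 7.56 CPM in male 12 and at 0 in the others, and DPOGS204899 was at 230.4 CPM in male 20 (others 2.23 to 27.4). DPOGS205125 was at 0 in male 20, the lowest male antennal library (others 18.2 to 22.3).

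In female legs DPOGS204899 was at 1.35 CPM in female 18 and at 0 in the others, and DPOGS211963 was at 0.395 CPM in female 27 (others 0 to 0.141). In male legs DPOGS204899 was at 11.8 CPM in male 20 (others 0 to 0.288) and DPOGS206989 at 0.197 CPM in male 12 (others 0 to 0.0706). In female proboscis DPOGS206989 was at 0.351 CPM in female 3 and at 0 in the others, and DPOGS211963 was at 4.70 CPM in female 11 (others 0.0186 to 0.841), a shallow library. In male proboscis DPOGS204899 was at 0.106 CPM in male 13 and at 0 in the others. The proboscis of male 20 had a count for 7 members, the lowest of the males (others 30 to 43).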

How the results depend on the processing

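The rule gave 34 members with 0.5 CPM added to each mean, 49 at a fold of 32 and 224 at a fold of 8. It gave 85 with TMM-scaled library sizes (72 shared with the 103), 101 with medians (72 shared), 119 without the 4 antennal libraries with few genes (81 shared, chosen after seeing the data) and 93 to 111 without 1 animal.

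Calls of members by sex or batch in antennae stayed at 0 under all alternatives run, also without each library. Calls between legs and proboscis numbered 14 in all, 6 using batch 2 only, 0 using batch 1 only, 1 with the leg and proboscis libraries alone (9 members tested, chosen after seeing the data) and 7 to 14 without 1 animal. Upper-quartile scaling moved the median log2 fold change of all genes there to -0.12, against 0.01 with TMM. The size factors of DESeq2 moved it to 0.04 between antennae and legs in batch 2, against -0.20 with TMM.

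With the animal as a replicate block the legs and proboscis comparison called 3 members higher and 14 lower in legs. The same block gave 45 and 43 calls in batch 2 and 28 and 24 in batch 1, and ended no call of a named gene.

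For genes chosen in batch 1, calls in batch 2 over legs were 83 without the filter and 41 to 59 without 1 animal; over proboscis they were 70 and 27 to 51, the lowest without female 1. For genes chosen in batch 2, calls in batch 1 over legs were 96 without the filter, 66 without the libraries with few genes (chosen after seeing the data) and 19 to 39 without 1 animal, the highest without male 20. Over proboscis they were 82, 55 and 13 to 36, the lowest without female 25 and the highest without male 20. The filter tests fewer of these genes, and the other causes were not tested. The log2 fold change of DPOGS215290 between batches reversed to 0.062 without the libraries with few genes. Over the antennal libraries 3 counts stand at 0.121 to 4.83 CPM, and the part of depth in these results was not tested.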
